A study of Mus musculus with 2 samples.

Results

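Lymphatic endothelial cells of the mouse lung that carry transcripts of Mrc1 and Ptx3 were described in 2 single-cell libraries. The cells were selected on their measured UMI counts (unique molecular identifiers, 1 for each captured RNA molecule). Barcodes were kept from 500 detected genes upward if mitochondrial UMIs did not exceed 15%. A kept barcode was a member when it had at least 3 UMIs of Prox1, Mmrn1 and Reln together and at least 3 of Mrc1, Ptx3 and Pld5 together. The sum of Mrc1, Ptx3 and Pld5 also had to be at least 2 times the sum of Fgl2, Nts and Sema3a, and Mki67 and Top2a together had to stay under 3 UMIs. The rule found 388 members in the aKO library and 222 in the aWT library, 610 of 27041 barcodes in all. Both libraries were made from lungs of C57BL/6J mice aged 10 to 12 weeks, from cells sorted for tdTomato under a VE-cadherin cre, and aKO and aWT are the names in the sample titles. The series title places the work in a mouse model of hereditary hemorrhagic telangiectasia 2. The labels name no deleted gene and no inducing agent, and do not say how many mice each library holds. With 1 library per group there is no replicate, so no comparison between aKO and aWT carries a test, and the intervals below are 95% intervals that cover counting error only.

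Lymphatic endothelial cells line the vessels that drain fluid and immune cells from the lung, and the transcription factor PROX1 sets and keeps their identity. Mrc1 encodes the mannose receptor, which takes up glycoproteins and also takes part in the passage of lymphocytes through lymphatic vessels, and Ptx3 encodes pentraxin 3, a secreted pattern recognition protein that binds complement and matrix components. In mouse lymph nodes, Ptx3 marks lymphatic endothelial cells of the paracortical and medullary sinuses. The disease in the series title is caused in patients by loss of ACVRL1, which encodes ALK1, the endothelial receptor for BMP9 and BMP10.

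The genes that chose the members had the following levels, given as CPM (the gene's UMIs over all UMIs summed over the members, scaled to 1000000). Mrc1, on chromosome 2 from 14229392 to 14332057 on the plus strand of mm10, was at 973 CPM (940 to 1007) in aKO members and 1274 CPM (1218 to 1332) in aWT members. Ptx3, on chromosome 3 from 66219910 to 66225805, was at 535 CPM (510 to 560) in aKO members and 493 CPM (458 to 530) in aWT members. Pld5, a member of the phospholipase D family, was at 515 CPM in aKO members and 254 CPM in aWT members. Of the genes held low by the rule, Fgl2, which encodes a secreted fibrinogen-like protein, was at 67.3 CPM in aKO and 40.4 CPM in aWT members, and the neurotensin gene Nts at 3.03 and 2.65 CPM. Sema3a, a secreted guidance cue, still stood at 353 CPM in aKO members and 321 CPM in aWT members. These levels follow from the rule and are a description.

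Lymphatic markers outside the rule were present in both libraries. Nav3, which encodes a neuron navigator protein, was at 425 CPM in aKO and 459 CPM in aWT members, and Tenm3, which encodes a teneurin adhesion protein, at 520 and 416 CPM. The CCR7 ligand gene Ccl21a, the most abundant of these markers, reached 8580 CPM in aKO and 9347 CPM in aWT members. Near-identical copies of Ccl21a exist in the mouse genome, so its count is uncertain. The VEGF-C receptor gene Flt4 was at 1008 CPM in aKO and 961 CPM in aWT members, and the podoplanin gene Pdpn at 187 and 195 CPM. Endothelial barcodes without a UMI of Prox1, Mmrn1 or Reln (7804 aKO and 13794 aWT barcodes, called non-lymphatic here) had 34.6 CPM of Ccl21a in aKO and 23.4 CPM in aWT, and 2.10 and 0.80 CPM of Nav3. These markers were thus present in members of both libraries, and non-lymphatic levels of Tenm3, Flt4 and Pdpn are not given here. Lyve1, also on the marker list, was present too, but was higher in non-lymphatic endothelial barcodes than in members of each library, as given below. The 6 listed markers outside the rule summed to 11239 CPM in aKO and 11712 CPM in aWT members. In non-lymphatic endothelial barcodes they summed to 2420 and 868 CPM.

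To set shares of barcodes side by side, each barcode was thinned to 2000 UMIs, which left out 21 aKO and 16 aWT members. After thinning, 74.9% of aKO members (70.2 to 79.3%) and 90.3% of aWT members (85.4 to 94.0%) held a UMI of Mrc1, against 96.9% and 99.1% before it. In non-lymphatic endothelial barcodes the thinned share was 0.268% in aKO and 0.518% in aWT. Whether these UMIs came from free RNA was not tested. Members had a median of 6830 UMIs in aKO and 6110 in aWT, and non-lymphatic endothelial barcodes 5598 and 4003.

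**Figure D1:**
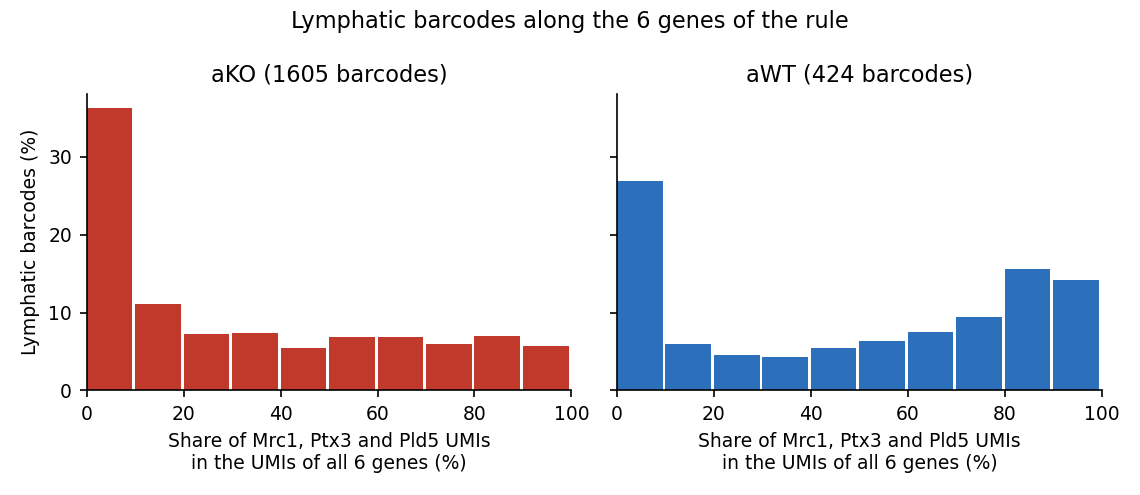
Each panel shows, for 1 library, the share of Mrc1, Ptx3 and Pld5 UMIs among the UMIs of those genes and Fgl2, Nts and Sema3a (x axis, percent, steps of 10) and the percent of lymphatic barcodes with at least 6 such UMIs in each step (y axis). The lowest step held 36.3% of 1605 aKO and 26.9% of 424 aWT barcodes, and the highest 5.73% and 14.2%.

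Members were 388 of 1936 lymphatic barcodes in aKO (18.3 to 21.9%) and 222 of 651, 34.1%, in aWT (30.5 to 37.9%). Lymphatic barcodes with the opposite pattern (at least 3 UMIs of Fgl2, Nts and Sema3a and at least 2 times as many as of Mrc1, Ptx3 and Pld5, called Fgl2 and Nts barcodes here) numbered 1009 in aKO and 195 in aWT, 52.1% and 30.0% of lymphatic barcodes. Members were therefore 27.8% of the barcodes of both patterns in aKO and 53.2% in aWT, and after thinning every barcode 24.6% and 51.0%. As a share of all barcodes kept, members were 3.60% in aKO (3.25 to 3.97%) and 1.42% in aWT (1.24 to 1.62%), while all lymphatic barcodes made up 18.0% of the aKO and 4.16% of the aWT library. The members' share thus differed in opposite directions with the denominator. As in the plot of the 6 genes, barcodes lay along the whole axis between the patterns, and 526 aKO and 229 aWT lymphatic barcodes met neither rule, with median depths of 5859 and 3148 UMIs.

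The rule has thresholds, and values on both sides of them are given here as a description. The 91 aKO and 36 aWT members with 2 to below 3 times as many Mrc1, Ptx3 and Pld5 as Fgl2, Nts and Sema3a UMIs had 541 and 339 CPM of Lyve1, which encodes a hyaluronan receptor, and the 196 aKO and 43 aWT barcodes with 1 to below 2 times as many had 686 and 395 CPM. Tenm3 was at 523 CPM in the aKO and 460 CPM in the aWT barcodes just inside, against 449 and 201 CPM just outside. Members with exactly 3 UMIs of the Mrc1 group numbered 18 in aKO and 15 in aWT, and barcodes with 2 numbered 38 and 22. Nav3 in these was at 229 and 535 CPM inside and at 439 and 236 CPM outside. Members with exactly 3 UMIs of the lymphatic genes numbered 9 in aKO and 1 in aWT.

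The libraries differed in ways that touch the members. Xist, the RNA of the inactive X chromosome, was at 938 CPM in aKO members and at 0 of 1510808 UMIs in aWT members (at least 473-fold higher in aKO, against 3 counts), and Ddx3y, Uty and Eif2s3y of the Y chromosome had no UMI in aKO members. Sex and group therefore cannot be told apart in any comparison of aKO with aWT. Doublet calling (barcodes that look like 2 cells) marked 36 aKO members (9.28%) and 35 aWT members (15.8%), against 2.06% and 4.70% of non-lymphatic endothelial barcodes, and these were kept. Among Fgl2 and Nts barcodes it marked 9.71% in aKO and 8.72% in aWT, and among all lymphatic barcodes 8.88% and 13.2%. Genes of general capillary cells, the most common blood endothelium of the lung, summed to 2027 CPM in aKO and 2760 CPM in aWT members, and 10 of 10 had a UMI in both. In members called as doublets the sum was 3724 CPM in aKO and 5431 CPM in aWT, in the other members 1688 and 1990 CPM, and in non-lymphatic endothelial barcodes 5413 and 9507 CPM. Genes of macrophages and monocytes summed to 122 CPM in aKO and 111 CPM in aWT members. Of 14 such genes 8 had a UMI in aKO and 6 in aWT, with Adgre1, C1qa, C1qb, C1qc, Tyrobp and Marco at 0 in both. At least 3 UMIs of this list were held by 49 aKO members (12.6%) and 19 aWT members (8.56%). Fcer1g, a gene of this list named again below, was at 67.3 CPM in aKO and 15.9 CPM in aWT members. No lymphocyte gene had a UMI in aWT members. The libraries shared 48 barcodes, of which 3 were members in 1 library, and none was a member in both.

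Members and Fgl2 and Nts barcodes differed in many genes beyond the 6 that split them. Among genes with at least 50 CPM in 1 class, 117 of 4915 (2.38%) were at least 2-fold higher in members in both libraries and 162 (3.3%) at least 2-fold lower, on the log2 scale of CPM plus 5. In aKO alone 152 genes were higher, of which 77.0% were also higher in aWT, and in aWT alone 187, of which 62.6% were also higher in aKO. These counts describe what goes with the split and are no test, since the split used the same barcodes.

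Npnt and Stab2 led the genes that were higher in members. Npnt, which encodes the matrix protein nephronectin, a ligand of integrin alpha 8 (chromosome 3, 132881745 to 132950291), was at 295 CPM in aKO members against 13.1 CPM in aKO Fgl2 and Nts barcodes, and at 356 CPM in aWT members against 23.1 CPM, log2 ratios of 4.05 and 3.68. Stab2, which encodes stabilin 2, a scavenger receptor for hyaluronan (chromosome 10, 86841198 to 87008025), had ratios of 3.99 in aKO and 3.62 in aWT. Hapln1, which encodes a protein that links hyaluronan to proteoglycans, was at 137 CPM in aKO members against 8.22 CPM, and at 87.4 CPM in aWT members against 4.45 CPM. Gria2, a glutamate receptor subunit gene, and Cacna2d3, a calcium channel subunit gene, had log2 ratios of 3.56 and 3.48 in aKO and of 2.95 and 3.44 in aWT. Runx2, a transcription factor known from bone formation, was at 168 CPM in aKO members against 20.3 CPM, and at 194 CPM in aWT members against 18.7 CPM. Zmat4, Tmem132d, Gm525, Sult5a1, Thrsp and Pdzrn3 completed the 12 highest. Zmat4, Gm525, Sult5a1, Thrsp and Pdzrn3 had ratios from 2.52 to 3.90, and Tmem132d had 307 UMIs in aKO and 77 in aWT members, against 22 and 3 in Fgl2 and Nts barcodes. F8, the coagulation factor VIII gene, was singled out after its values were seen, with 471 CPM in aKO members against 87.0 CPM and 469 CPM in aWT members against 92.5 CPM.

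Genes of the opposite side were low in members. Igfbp5, which encodes a binding protein for insulin-like growth factors, was at 71.3 CPM in aKO members against 2573 CPM in aKO Fgl2 and Nts barcodes, and at 57.6 CPM in aWT members against 2480 CPM. Ptn, which encodes the heparin-binding growth factor pleiotrophin, had 7 UMIs in aKO members and 2 in aWT members, against 2183 and 232 UMIs in Fgl2 and Nts barcodes. Serping1, the gene of the C1 esterase inhibitor, had log2 ratios of -3.62 in aKO and -3.33 in aWT, and Serpine2, which encodes an inhibitor of serine proteases, of -3.39 and -3.55. Pkhd1l1 was at 37.6 CPM in aKO members against 514 CPM, and at 36.4 CPM in aWT members against 779 CPM. Dtx1, a gene of the Notch pathway, and Gucy1b1, a subunit gene of the nitric oxide receptor guanylate cyclase, were at 5.46 and 3.94 CPM in aKO members against 110 and 97.9 CPM, and at 3.31 and 2.65 CPM in aWT members against 167 and 103 CPM. Clca3a1, Nrxn3, Serpina3n, Htr2b and Dapk1 completed the 12 lowest. Lyve1 lay lower in members too, at 519 CPM in aKO members against 1932 CPM, and at 334 CPM in aWT members against 1776 CPM. The ratio of Ccl21a had opposite signs in the libraries, log2 ratios of -0.24 in aKO and 0.30 in aWT.

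**Figure D2:**
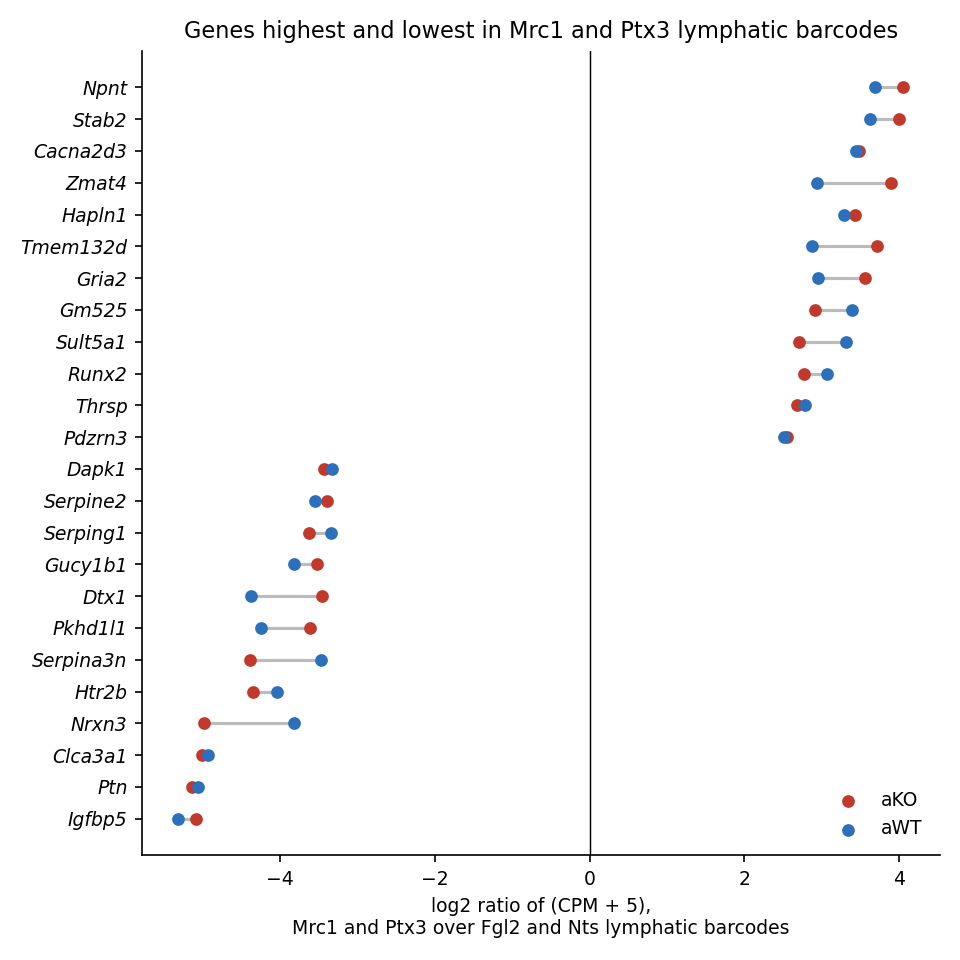
Points give the log2 ratio of CPM plus 5 in Mrc1 and Ptx3 lymphatic barcodes over Fgl2 and Nts lymphatic barcodes (x axis) for the 12 highest and 12 lowest genes outside the rule, with aKO in red and aWT in blue. The 12 highest run from 2.52 to 4.05 and all 12 lowest are under -3 in both libraries.

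Gene lists were set between the classes in the same way. Of 16 genes reported for the Ptx3 subset of lymph node lymphatic cells, 6 were at least 1.5-fold higher in members in both libraries and 3 lower, where 4.34% of 11876 genes with at least 5 CPM were higher and 4.32% lower. The higher ones were Stab2, Nav3, Tenm3, Kcnj8, a potassium channel gene (127 and 142 CPM in aKO and aWT members, against 37.9 and 25.8 CPM), Itih5, which encodes a hyaluronan-binding matrix protein (154 and 220 CPM, against 50.8 and 68.5 CPM), and Scn3b, a sodium channel subunit gene. Nav3 and Tenm3 were also among the markers chosen for these cells with earlier results of these data known. Their place among the higher genes is therefore no separate support for a likeness to the lymph node subset. Lyve1, the mechanosensitive channel gene Piezo2 and the cytokine gene Il7 were the lower ones. Of 10 complement genes and partners of pentraxins, Itih5 was the 1 higher and 5 were lower. Of 19 chemokine and leukocyte traffic genes none was higher and 5 were lower. Among them the scavenger receptor gene for Cxcl12, Ackr3, was at 73.7 CPM in aKO members against 537 CPM and at 70.2 CPM in aWT members against 452 CPM. Of 25 guidance genes 6 were higher and 1 lower, and among the higher ones Plxnd1, a semaphorin receptor gene, was at 198 CPM in aKO members against 72.4 CPM and at 123 CPM in aWT members against 48.9 CPM. Of 19 collecting vessel and valve genes 5 were lower, among them the junction gene Cldn11, with 0.61 and 0.66 CPM in aKO and aWT members against 33.2 and 41.8 CPM. Angpt2, which encodes the Tie2 ligand angiopoietin 2, was the 1 gene of that list that was higher in members, at 269 CPM in aKO members against 60.9 CPM and at 267 CPM in aWT members against 105 CPM. The list genes named in these sentences, other than those of the naming rule, were chosen after their values were seen.

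Summed levels were graded between the patterns. In 5 classes of lymphatic barcodes by the share of Mrc1, Ptx3 and Pld5 UMIs, Npnt was at 6.86, 42.2, 135, 278 and 319 CPM in aKO and at 8.50, 105, 216, 272 and 407 CPM in aWT, low to high. Igfbp5 was at 3050, 636, 310, 87.7 and 68.7 CPM in aKO and at 3068, 237, 101, 42.5 and 35.3 CPM in aWT. Lyve1 was at 2038, 1540, 855, 542 and 501 CPM in aKO and at 2043, 1088, 533, 443 and 255 CPM in aWT. So Npnt was higher, and Igfbp5 and Lyve1 lower, in each next class of both libraries. Ccl21a stayed between 7829 and 10356 CPM in all classes of aKO and between 7887 and 9755 CPM in those of aWT, and Prox1, which the rule used, between 663 and 858 CPM and between 692 and 874 CPM. The classes held between 37 and 761 barcodes. Doublet calls made up 7.91, 10.8, 18, 23.6 and 12.7% of the aWT classes, low to high. In aKO they made up 8.94, 10.6, 8.08, 8.74 and 9.27%. The part of doublet calls, and of counting error in a share of few UMIs, in the middle classes was not tested.

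**Figure D3:**
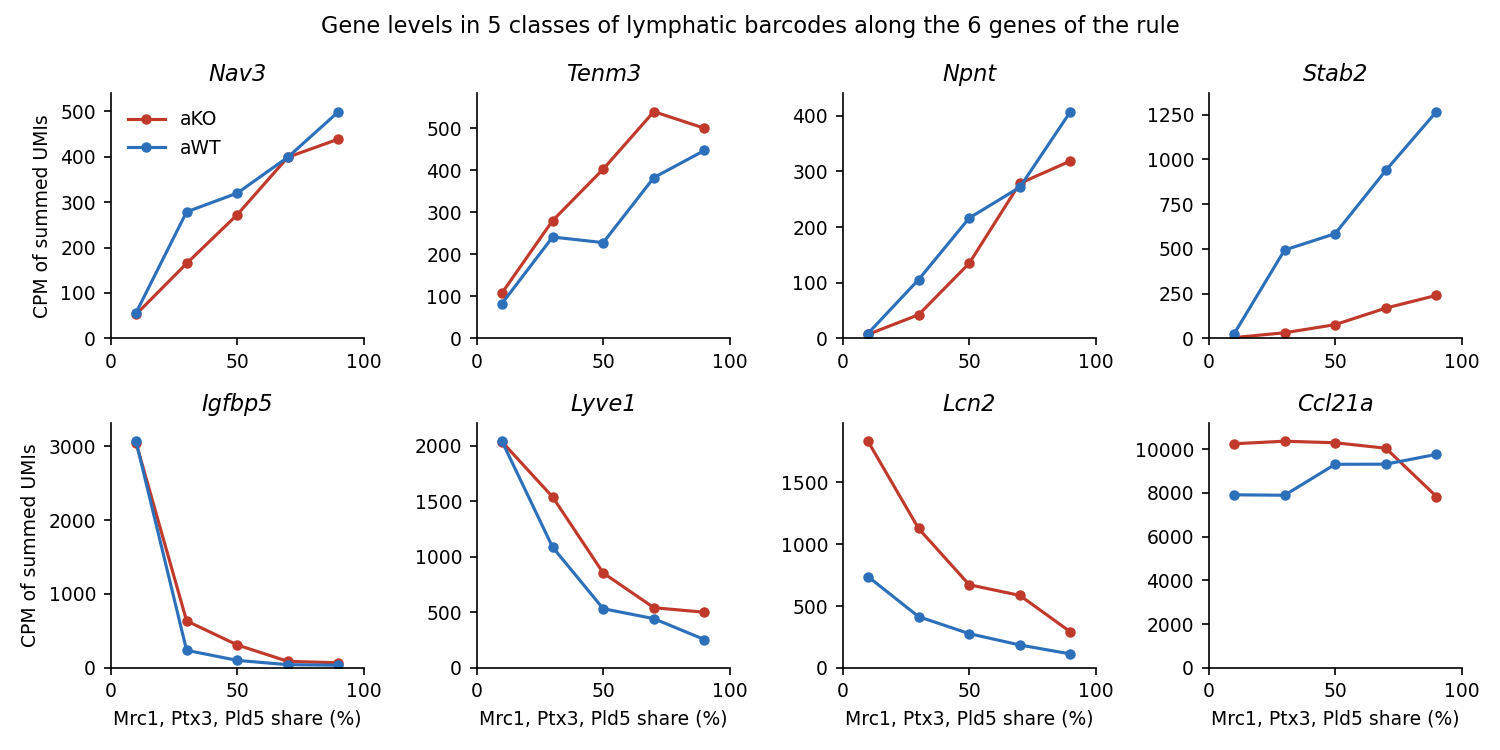
Each panel gives the CPM of 1 gene (y axis, linear from 0) in 5 classes of lymphatic barcodes by the share of Mrc1, Ptx3 and Pld5 UMIs among those of the 6 genes that split lymphatic barcodes (x axis, percent, points at the class centres), with aKO in red and aWT in blue. Stab2 is lower and Lcn2 higher in aKO in each of the 5 classes.

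The variance of UMIs among members was largest over the mean in a few genes. The Fano factor (variance over mean of UMIs after thinning to 2000) had a median of 1.13 in 367 aKO and 1.11 in 206 aWT members over 3662 genes. It is not adjusted for level, so its order is not one of spread relative to the mean. The mean in aKO members was 54.2 UMIs for Malat1 and 0.155 for Cdh13. The nuclear RNA Malat1 had the highest, 16.8 in aKO and 13.2 in aWT, with a median of 54 UMIs per aKO member and 70.5 per aWT member. Ccl21a followed with 11.4 in aKO and 9.32 in aWT. A member at the 10th percentile held 3 Ccl21a UMIs in aKO and 2 in aWT, a member at the median 15 and 18, and a member at the 90th percentile 39 and 37. Fos and Jun, subunits of the immediate early factor AP-1, had Fano factors of 4.69 and 3.80 in aKO and of 5.46 and 3.67 in aWT. Cdh13, Mgp and Adgrl3, all higher in non-lymphatic endothelium than in members, were concentrated in few members. In aWT 5 members held 92.2% of all Cdh13 UMIs, and members called as doublets held 81.5% of the aKO and 78.7% of the aWT Adgrl3 UMIs. The matrix Gla protein gene Mgp had 77.5% of its aKO and 66.7% of its aWT UMIs in 5 members. Gm42418, a ribosomal RNA overlapping transcript, was the other gene among the 8 highest.

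Between the libraries, 56 of 4576 genes with at least 50 CPM (1.22%) were at least 2-fold higher in aKO members and 92 (2.01%) at least 2-fold lower, with a median log2 ratio over these genes of 0.03. Thinning every member to 2000 UMIs gave more calls and a larger share on the higher side, 48.0% of calls against 37.8% without it. In Fgl2 and Nts barcodes 50 of 4499 genes were higher (1.11%) and 82 lower (1.82%). Of the genes at least 2-fold apart in members, 17 of the higher and 47 of the lower ones were so there too. No gene of the rule is in these counts.

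**Figure D4:**
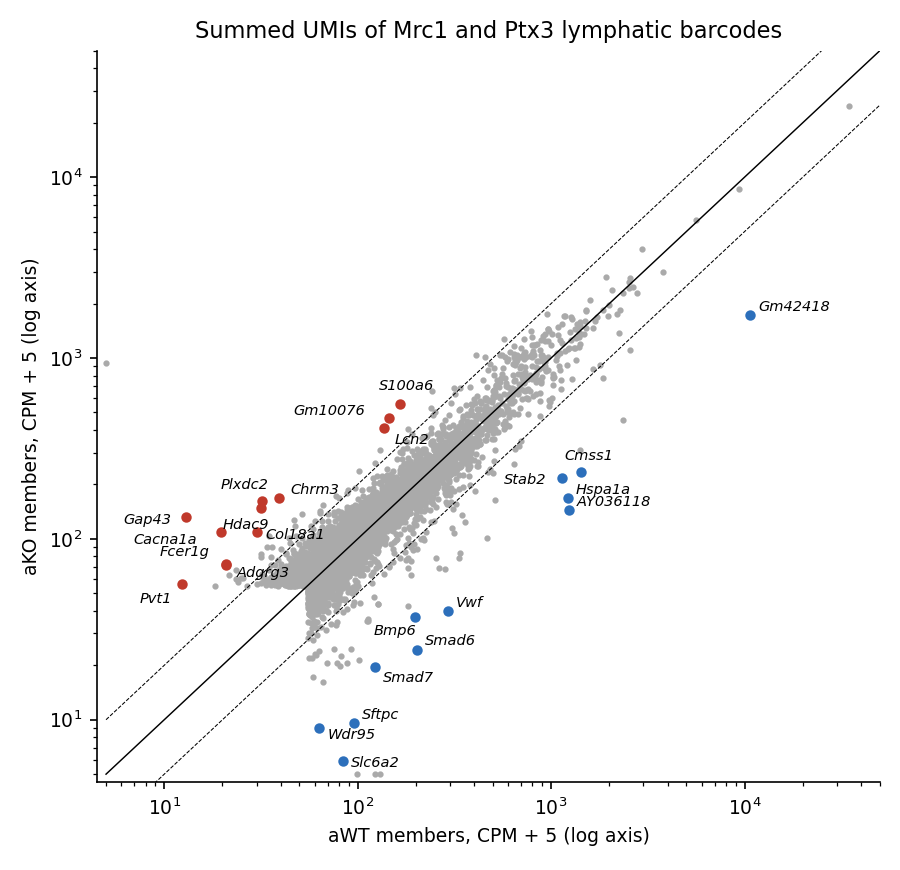
Each point is a gene with at least 50 CPM in 1 library, with CPM plus 5 of aKO members on the y axis and of aWT members on the x axis (both log axes). The solid line marks equal levels, the dashed lines 2-fold, and the named genes are the 12 highest (red) and 12 lowest (blue) outside the excluded gene classes. The unnamed point at the far left is Xist. Unnamed points at the bottom, left of the middle of the x axis, are Y-linked genes.

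Stab2 was the scavenger receptor gene with the largest difference between the libraries. It was at 212 CPM (197 to 229) in aKO members and at 1133 CPM (1079 to 1187) in aWT members, a log2 ratio of -2.39. Of 388 aKO members 105 held a UMI of Stab2, against 189 of 222 aWT members. After thinning, the share was 14.2% in aKO (10.8 to 18.2%) and 73.8% in aWT (67.2 to 79.7%), with intervals of counting error within each library. Non-lymphatic endothelial barcodes held the gene in 0.128% in aKO and 0.776% in aWT, unthinned. Along the 5 classes from the Fgl2 and Nts side to the Mrc1 and Ptx3 side, Stab2 was at 3.58, 30.6, 76.1, 169 and 240 CPM in aKO and at 23.1, 493, 585, 938 and 1267 CPM in aWT. It was thus lower in aKO in every class and higher toward the members in both libraries. Members called as doublets held 63 of its 700 UMIs in aKO and 186 of its 1711 in aWT, and without them the levels were 232 and 1300 CPM. Its ratio lay between -2.79 and -2.09 in all settings tried. Its paralogue Stab1 was at 695 CPM in aKO members and 513 CPM in aWT members, and the scavenger receptor gene Cd36 at 247 and 415 CPM. Doublet calls held 44.6% of the aKO and 58.7% of the aWT Cd36 UMIs, and the ratio of Cd36 was -0.74 with them and -0.42 without them. Of the 9 scavenger and hyaluronan receptor genes measured, 1 was higher and 2 lower by 1.5-fold. Among 11169 genes with at least 5 CPM, 8.62% were higher and 6.82% lower. Without doublet calls 2 of the 9 receptor genes were higher and 1 lower.

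Gap43 and Lcn2 were among the genes that were higher in aKO members. Gap43, which encodes a growth-associated protein known from growing axons (chromosome 16, 42248442 to 42340651), was at 126 CPM (115 to 139) in aKO members and 7.94 CPM (4.10 to 13.9) in aWT members, a log2 ratio of 3.34. It was found in 98 aKO and 9 aWT members, and after thinning in 11.4% (8.37 to 15.2%) and 0.485% (0.0123 to 2.68%), against 0.149% and 0.167% of non-lymphatic endothelial barcodes. The aWT interval thus includes both non-lymphatic shares. Lcn2, which encodes lipocalin 2, an acute phase protein that binds iron carriers (chromosome 2, 32384633 to 32388252), was at 408 CPM (386 to 430) in aKO and 132 CPM (114 to 151) in aWT members. It was lower in members than in Fgl2 and Nts barcodes, which had 1697 CPM in aKO and 646 CPM in aWT, and higher in aKO than aWT in each of the 5 classes. Lcn2 was at 6.08 CPM in aKO and 5.87 CPM in aWT non-lymphatic endothelial barcodes.

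The other genes among the 12 highest were spread over several roles. Cacna1a, a calcium channel subunit gene, was at 105 CPM in aKO members and 14.6 CPM in aWT members, and Chrm3, the gene of a muscarinic acetylcholine receptor, at 163 and 34.4 CPM. Plxdc2, a plexin domain gene, was at 157 CPM in aKO and 27.1 CPM in aWT members, and Col18a1, the collagen chain from which endostatin is released, at 104 and 25.2 CPM. Hdac9, which encodes a histone deacetylase, was at 143 CPM in aKO and 26.5 CPM in aWT members, but members called as doublets held 63% and 65% of its UMIs. In members of 3000 to 10000 UMIs the ratio of Hdac9 was 0.66, against 2.24 in all members, and that of Gap43 2.34, against 3.34. S100a6, a calcium-binding protein gene, was at 550 CPM in aKO and 160 CPM in aWT members. Fcer1g, the gene of a signalling chain of Fc receptors, was at 67.3 CPM in aKO and 15.9 CPM in aWT members, in 55 and 8 members, while 5 members held 31.5% and 87.5% of its UMIs. Its ratio was 1.79, and 2.89 after thinning. Adgrg3, an adhesion receptor gene, the long noncoding RNA Pvt1 and Gm10076 completed the 12.

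Of the 12 lowest genes, several were those of blood endothelium and several were noncoding or stress genes. Slc6a2, a noradrenaline transporter gene of venous endothelium, had 3 UMIs in aKO members and 119 in aWT members, of which members called as doublets held 1 and 106. Vwf, which encodes von Willebrand factor, was at 34.9 CPM in aKO and 288 CPM in aWT members. Doublet calls held 53.0% of its aKO and 70.1% of its aWT UMIs, and without them it was at 19.6 CPM and 111 CPM, a log2 ratio of -2.23 against -2.88 with them. Bmp6, a BMP ligand gene, was at 32.1 CPM in aKO and 194 CPM in aWT members, with 71.7% and 72.7% of UMIs in doublet calls. The heat shock gene Hspa1a was at 163 CPM in aKO and 1214 CPM in aWT members. Sftpc, the surfactant gene of alveolar type 2 cells, had 15 UMIs in aKO and 137 in aWT members, in 15 and 91 members. Non-lymphatic endothelial barcodes had 223 CPM of Sftpc in aKO and 1621 CPM in aWT, above the members of each library. Gm42418 and AY036118, which overlap each other and ribosomal RNA sequence on chromosome 17, were at 1731 and 139 CPM in aKO and at 10650 and 1227 CPM in aWT members. Cmss1 and Wdr95 had log2 ratios of -2.60 and -2.82. The part of doublet calls in these ratios was not tested.

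**Figure D5:**
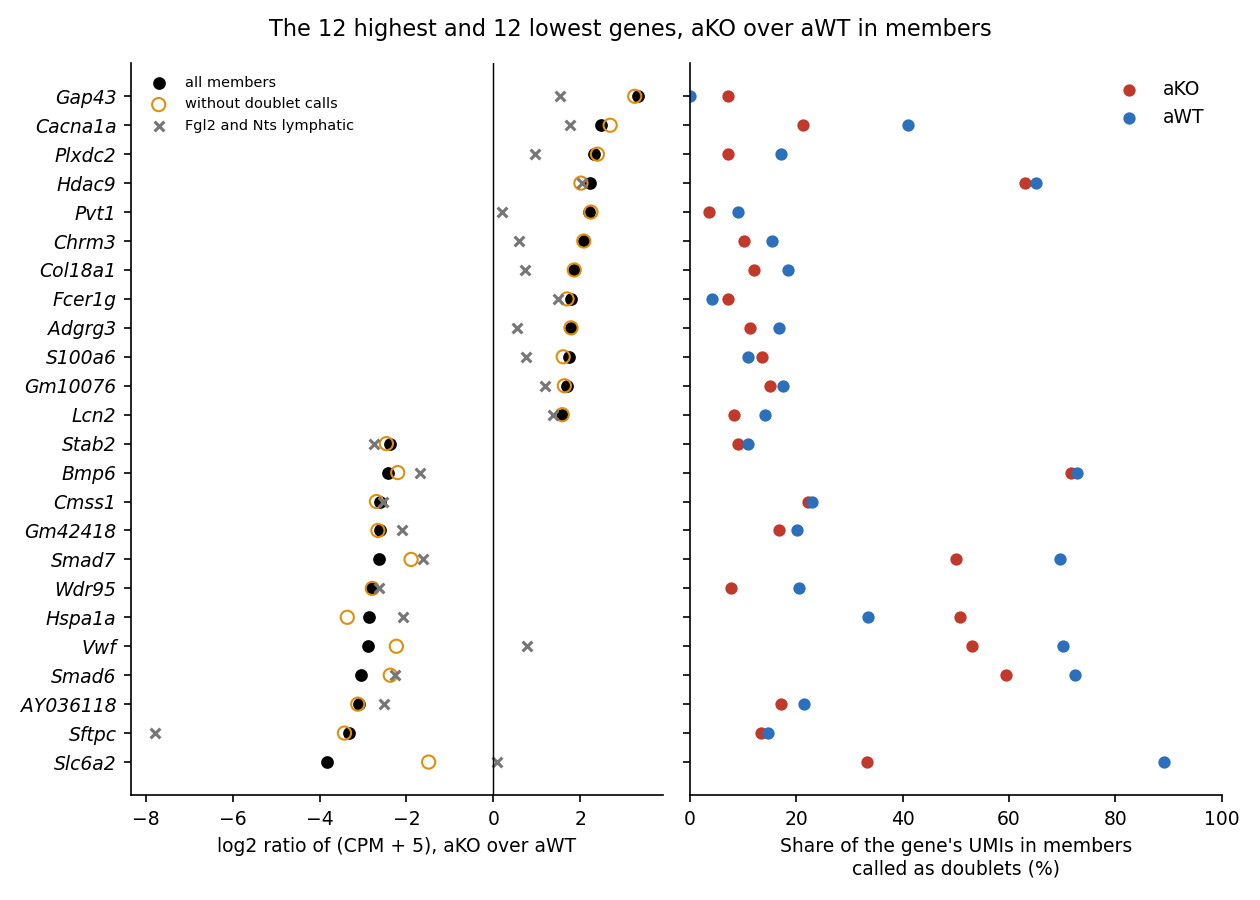
The left panel gives log2 ratios of CPM plus 5, aKO over aWT, for the 12 highest and 12 lowest genes in all members (black), members without doublet calls (orange rings) and Fgl2 and Nts barcodes (grey crosses), and the right panel the percent of each gene's member UMIs in doublet calls, aKO in red and aWT in blue. Slc6a2, Smad6, Smad7, Bmp6 and Vwf have 69% or more of their aWT UMIs in doublet calls, against 10.9% for Stab2.

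Genes of BMP9 and ALK1 signalling were lower in aKO members in 9 cases, not all of them without doublet calls. Over all 11169 genes with at least 5 CPM, 8.62% were higher by 1.5-fold in aKO members and 6.82% lower, with a median log2 ratio of 0.04. Among 17 measured response genes none was higher by 1.5-fold and 9 were lower, with a median of -0.69. Without doublet calls 7 were lower and 3 higher, with a median of -0.49. In Fgl2 and Nts barcodes 5 of 17 were lower and none higher, with a median of -0.27. Acvrl1 was at 119 CPM (107 to 131) in aKO members and 234 CPM (211 to 260) in aWT members, and without doublet calls at 81.1 and 109 CPM. Doublet calls held 43.0% of its aKO and 63.8% of its aWT UMIs. A 3' count need not fall in a deleted part of a gene, so this level does not check the labels. Eng, which encodes the co-receptor endoglin, was at 279 CPM in aKO and 375 CPM in aWT members, and at 257 and 273 CPM without doublet calls. The ratio of Eng was -0.42, and its direction turned to 0.14 after thinning to 2000 UMIs. Bmpr2, which encodes the type II BMP receptor, was at 255 CPM in aKO and 637 CPM in aWT members, and at 203 and 431 CPM without doublet calls.

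The response genes did not all differ in 1 direction. The inhibitory SMAD genes Smad6 and Smad7 were at 19.4 and 14.6 CPM in aKO members and at 197 and 117 CPM in aWT members. Without doublet calls they were at 9.46 and 8.73 CPM in aKO and at 69.9 and 46.0 CPM in aWT, log2 ratios of -2.37 and -1.89. Hey1, a transcriptional repressor gene of the BMP and Notch pathways, had a ratio of -1.40 without them and Tmem100, a target of ALK1, of -0.95. The inhibitors of helix-loop-helix factors Id1, Id2 and Id3, which BMP signalling induces, were at 173, 49.1 and 308 CPM in aKO members and at 283, 49.6 and 292 CPM in aWT members. Without doublet calls they were at 179, 54.6 and 329 CPM in aKO and at 154, 30.7 and 184 CPM in aWT, with ratios of 0.21, 0.74 and 0.82. In non-lymphatic endothelial barcodes the ratios of Id1, Id2 and Id3 were -3.64, -2.14 and -3.57. All 3 genes were thus lower in aKO outside the lymphatic barcodes, and in members without doublet calls none was. General capillary genes differed in the same direction as the list, and 7 of 10 were lower in aKO members, with a median of -0.84. Their part in the list's median was not tested. Of 18 BMP and TGF-beta components measured, 2 were higher and 4 lower, where 8.62% and 6.82% of all genes were. The higher ones were Tgfb1, at 294 CPM in aKO and 163 CPM in aWT members, and the signal transducer gene Smad3. Without doublet calls 2 of 18 components were higher and 2 lower.

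Heat shock and immediate early genes were lower in aKO members for most genes of both lists. By the same 1.5-fold rule, 8.62% of 11169 genes were higher and 6.82% lower. Of 12 heat shock genes 9 were lower and none higher (median log2 ratio -1.12), also without doublet calls (9 lower, median -1.19). Hspb1, a small heat shock protein gene, was at 449 CPM in aKO and 2352 CPM in aWT members, Hspa1b at 304 and 1405 CPM, and Hsph1 at 96.1 and 461 CPM. In Fgl2 and Nts barcodes 11 of 12 were lower. Of 15 immediate early genes 11 were lower and none higher (median -0.75), and without doublet calls 12. Atf3, a stress-induced transcription factor gene, was at 109 CPM in aKO and 303 CPM in aWT members, Ier3 at 64.3 and 178 CPM, Btg2 at 309 and 649 CPM and Fos at 908 and 1792 CPM. In Fgl2 and Nts barcodes 2 of 15 were lower, with a median of -0.26. The flow-responsive factor genes Klf2 and Klf4 were at 768 and 342 CPM in aKO members and at 1854 and 695 CPM in aWT members.

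Genes of S100 proteins, glycolysis and growth had positive medians. Their counts stand beside 8.62% of 11169 genes higher by 1.5-fold and 6.82% lower. Of 14 galectin, S100 and annexin genes 6 were at least 1.5-fold higher in aKO members and none lower (median 0.53), with Anxa2 at 561 CPM in aKO and 299 CPM in aWT members and Lgals1, the galectin 1 gene, at 24.6 and 3.97 CPM. The aWT level of Lgals1 rests on 6 UMIs, and its ratio was 1.72, against 0.75 in members of 3000 to 10000 UMIs. Of 14 glycolysis genes 4 were higher and none lower (median 0.48), with Gapdh at 308 CPM in aKO and 165 CPM in aWT members and Ldha at 101 and 62.2 CPM. Eno1 was at 57.9 and 16.6 CPM, and near-identical copies of both Gapdh and Eno1 make their counts uncertain. Of 9 proliferation genes measured 5 were higher (median 0.70), among them the tubulin gene Tubb5, at 624 CPM in aKO and 313 CPM in aWT members, the thymidylate synthase gene Tyms, at 53.1 and 29.8 CPM, and the replication gene Mcm5, at 17.9 and 4.63 CPM. The rule had set aside barcodes with 3 UMIs of Mki67 and Top2a, 13 in aKO and 5 in aWT. Of 22 nuclear genes of oxidative phosphorylation 4 were higher and none lower (median 0.30). In Fgl2 and Nts barcodes the medians of these lists were positive too. They were 0.30 for galectin, S100 and annexin genes, 0.38 for glycolysis, 0.39 for proliferation and 0.35 for oxidative phosphorylation.

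Most lists of lymphatic function lay near the median of all genes. Among all 11169 genes, 8.62% were higher by 1.5-fold and 6.82% lower, and several of the counts below are near these shares. Of 18 lymphatic identity genes Lyve1 was the 1 higher, at 519 CPM in aKO and 334 CPM in aWT members (log2 ratio 0.63), and none was lower (median 0.08). In members of 3000 to 10000 UMIs the ratio of Lyve1 was -0.029, and Lyve1 was at 2321 CPM in aKO and 783 CPM in aWT non-lymphatic endothelial barcodes. Of 22 lymphatic transcription factor genes 1 was higher and 4 lower (median -0.06), the lower ones being Klf2, Klf4, Gata2 and Foxc1. Sox18, which acts upstream of Prox1, was at 446 CPM in aKO and 442 CPM in aWT members, and Nr2f2, a partner of PROX1, at 1205 and 1137 CPM. Of 18 collecting vessel and valve genes 2 were lower and none higher (median -0.01). In the VEGF-C pathway 3 of 11 genes were lower (median -0.35), with Nrp1 at 37.3 CPM in aKO and 178 CPM in aWT members, Flt1 at 142 and 308 CPM and Calcrl, the adrenomedullin receptor gene, at 870 and 1647 CPM. All 3 were more abundant in non-lymphatic endothelial barcodes than in members. Doublet calls held 78.9% of the aKO and 79.6% of the aWT Nrp1 UMIs and 62.8% and 70.3% of the Flt1 UMIs. Without doublet calls 1 of 10 pathway genes was higher and 3 were lower, with a median of -0.01. Nrp2, the co-receptor of VEGF-C, was at 1593 CPM in aKO and 1496 CPM in aWT members. Of 17 chemokine and traffic genes 5 were lower (median -0.18), with Cxcl12 at 31.2 CPM in aKO and 109 CPM in aWT members and Icam1 at 12.1 and 53.6 CPM. Doublet calls held 59.1% of the aWT Cxcl12 and 55.6% of the aWT Icam1 UMIs. Without them the ratio of Cxcl12 was -0.90, against -1.65 with them, and that of Icam1 -1.27, against -1.77. Of 16 inflammation genes Lcn2 was the 1 higher and 5 were lower (median -0.27). Without doublet calls 1 of 15 was higher and 4 were lower (median -0.03). Of 24 interferon genes 2 were higher and none lower (median -0.05): Ifi27l2a, at 74.6 CPM in aKO and 26.5 CPM in aWT members, and Ifi27l2b, with no UMI in aWT members and at least 10.8-fold higher in aKO against 3 counts. Only 17 aKO members held Ifi27l2b, and 5 of them held 83.1% of its 71 UMIs.

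Of 24 guidance genes 2 were higher and 7 lower (median -0.04), where 8.62% of 11169 genes were higher by 1.5-fold and 6.82% lower. Without doublet calls 2 of 24 guidance genes were higher and 5 lower. Sema3c, a secreted cue, was at 58.2 CPM in aKO and 183 CPM in aWT members. Doublet calls held 79.2% of the aKO and 57.4% of the aWT Sema3c UMIs. Its ratio was -1.57 in all members, -2.43 without doublet calls and -0.96 without members that held 3 or more UMIs of other cell types. Of 26 basement membrane and matrix genes 2 were higher and 2 lower (median 0.16), with the laminin gene Lamb1 at 37.0 CPM in aKO and 9.27 CPM in aWT members and Fbln2 at 90.7 and 56.9 CPM. Of 15 lipid handling genes 4 were higher and 4 lower (median -0.15), with Apoe at 15.5 CPM in aKO and 72.8 CPM in aWT members and Pparg, a lipid-sensing nuclear receptor gene, at 31.2 and 14.6 CPM. Of the 110 aWT Apoe UMIs 5 members held 69.1%, and its ratio was -1.93 over summed UMIs and -1.28 as a mean over barcodes. Without doublet calls 4 of 15 lipid handling genes were higher and 2 lower. Of 21 vasoactive and coagulation genes 4 were higher and 6 lower (median 0.02), among them Edn1, the endothelin 1 gene, at 1.52 CPM in aKO and 40.4 CPM in aWT members, and Nos3, the endothelial nitric oxide synthase gene, at 35.8 and 12.6 CPM. Doublet calls held 65.6% of the aWT Edn1 UMIs, and its ratio was -2.80 with them and -1.91 without them. The ratio of Nos3 was 1.21, against 0.63 without doublet calls and -0.13 in members of 3000 to 10000 UMIs. F8, which stood out in members against Fgl2 and Nts barcodes, differed by 0.01 on the log2 scale between the libraries. Of 14 MHC class I genes 1 was higher, H2-D1 at 1749 CPM in aKO and 945 CPM in aWT members, and 1 lower. The other 6 lists (angiopoietin and Tie, Notch, junctions, integrins, MHC class II, and caveolae and transport) had medians from -0.30 to 0.07. Without doublet calls the median of MHC class II was 0.16, against -0.30 with them. That of integrins was 0.12 without them, with 4 of 11 genes higher and 1 lower, against -0.10 with them. Where a gene named here is outside the naming rule (such as Stab1, Id2, Id3, Nrp2, Sox18 and Nr2f2), it was named after its values were seen.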

How the data were processed

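The deposited values are raw UMI counts, made by the authors with Cell Ranger 7.2.0 and mm10, per the submitters' processing notes, from 3' v3 libraries, per the labels. The sources used here do not give the annotation release, intron counting or strand use. The files hold 32286 features, with 75950364 UMIs in aKO and 72270260 in aWT, and 10785 aKO and 15651 aWT barcodes were kept. Members summed to 3297142 UMIs in aKO and 1510808 in aWT. Ratios are log2 of CPM plus 5, which understates differences of low genes. Intervals are exact Poisson (CPM) and Clopper-Pearson (shares). Scrublet (scanpy 1.11.5, expected rate 0.8% per 1000 barcodes) called 370 aKO and 787 aWT barcodes doublets. The expected rate was given because the default rate called no aWT barcode. It was higher for aWT, which had more barcodes kept. Coordinates are GENCODE M21 on mm10. Genes were named as the rule's genes, the 12 highest and 12 lowest of each comparison (leaving out mitochondrial, ribosomal, globin, immunoglobulin and sex genes), at most 4 a list by ratio, Acvrl1, Eng and the 8 of highest Fano factor. Members and lists were chosen with earlier results of these data known. Scripts (Python 3.11.15, numpy 2.4.6, scipy 1.17.1, TMM of edgeR 4.0.16 as an alternative) were tested on simulated data.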

Additional observations from a re-analysis of the deposited data

Results flagged for a closer look

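Mgp and Vwf differed between the libraries in opposite directions in the members and in Fgl2 and Nts lymphatic barcodes. Mgp had a log2 ratio, aKO over aWT, of -0.64 in members and 1.47 in Fgl2 and Nts barcodes. In members the ratio of Mgp was -1.68 without doublet calls and -2.60 at 3000 to 10000 UMIs. Vwf had -2.88 in members and 0.78 in Fgl2 and Nts barcodes. These differences were not tested, since each group has 1 library. Members called as doublets held 66.5% of the aKO and 31.7% of the aWT Mgp UMIs and 53.0% and 70.1% of the Vwf UMIs, and their part in the ratios was not tested.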

How the results depend on the processing

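No paired analysis was possible because each group has 1 library. The alternatives were planned, but the expected doublet rate was set after the default rate had called no aWT barcode. The count of genes at least 2-fold higher in aKO members (56) was 36 with 20 CPM added, 117 after thinning, and 116, 34 and 199 with a minimum of 20 CPM, 100 CPM or none. The count lower (92) was 139 in members of 3000 to 10000 UMIs, and 153 and 219 with a minimum of 20 CPM or none. Genes higher in members than in Fgl2 and Nts barcodes numbered 72 with 20 CPM added. The members' share of lymphatic barcodes was 15.6% in aKO when the rule was applied after thinning, and 27.9% in aKO and 38.7% in aWT when Mrc1, Ptx3 and Pld5 had only to exceed Fgl2, Nts and Sema3a. The BMP9 and ALK1 median (-0.69) was -0.42 with 20 CPM added, -0.44 as a mean over barcodes, -0.27 after thinning, -0.49 without doublet calls, -0.58 with thresholds of 5 UMIs and -0.48 with no minimum. The proliferation median (0.70) was 0.33, 0.53 and 0.49 in the first 3 of these settings, 0.57 with thresholds of 5 UMIs, 0.43 in members of 3000 to 10000 UMIs and 0.34 with no minimum. The immediate early median (-0.75) was -0.43 as a mean over barcodes, -0.58 after thinning and -0.43 at 3000 to 10000 UMIs. Among named genes at least 1.5-fold apart, direction changed for Ecm1 (0.24 after thinning, 0.039 without doublet calls), and at 3000 to 10000 UMIs for Dll1 (-0.56), Lyve1 (-0.029) and Nos3 (-0.13). Eng, less than 1.5-fold apart (-0.42), was at 0.14 after thinning. The causes were not tested. Of the remaining single-gene ratios, Eng included, 864 stayed within the range that counting error gives the reported value and 111 did not. At 4000 UMIs 7 of the 8 genes of highest Fano factor were shared. All 16 Fano factors that were compared between settings moved from the reported values. With 222 aWT members, 3 UMIs correspond to 1.99 CPM, which limits the low genes.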
